A study of Mus musculus with 18 samples.

Results

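Neutrophils of NADPH oxidase-deficient mice that had been sorted as mature were set against neutrophils of wild-type mice that had been sorted as immature, to ask whether the first resemble the second. The members are 6 of the 18 RNA sequencing libraries of the study, taken by their labels: 3 of CGD zymosan CD101-positive cells and 3 of WT zymosan CD101-negative cells. CGD stands for chronic granulomatous disease, here mice with a knockout of Cybb, and WT for wild type. All mice behind these libraries were C57BL/6 females aged 13 weeks that had received 20 µg of sterile zymosan, a yeast cell wall preparation, into the nose, and lungs were taken after 24 hours. Live cells positive for CD45, CD11b and Ly6G were sorted from digested whole lung and divided by surface CD101. The remaining zymosan groups, WT CD101-positive and CGD CD101-negative cells with 3 libraries each, came from mice of the same sex, age and treatment and serve here as reference points. The naive groups (untreated males aged 12 weeks) entered the statistical fit only. Genotype and sort differ together between the 2 groups compared, so their contributions cannot be told apart from this comparison alone. No label says that replicates come from separate animals, so the p-values measure only the spread between these samples, which may be technical.

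CD101 is a surface glycoprotein that neutrophils gain late in maturation, after they have left the bone marrow stages in which granule proteins are made. Granules are filled in order, with the primary (azurophil) proteins first, then the secondary and tertiary ones, and the transcripts fade as cells mature, while receptors such as Cxcr2 and Csf3r stay on. The product of Cybb, gp91phox, forms with p22phox the membrane core of the phagocyte oxidase, which turns oxygen into superoxide when neutrophils meet fungi. Without it phagocytes clear fungi poorly and inflammation is prolonged.

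The CGD CD101-positive libraries held 60.1 to 67.9 M counts in genes and the WT CD101-negative libraries 51.9 to 57.1 M. Reads in mitochondrially encoded genes made up 0.330% to 0.396% and 0.492% to 0.581% of them. Levels are given as CPM (counts per M counts, scaled by TMM factors) for replicates 1, 2 and 3 in that order, and differences as the log2 fold change of CGD CD101-positive against WT CD101-negative cells with its standard error (SE), so that 1 is a doubling. A gene passed at an adjusted p under 0.05 (edgeR quasi-likelihood test, Benjamini-Hochberg), and adjusted p-values below come from that test over all 16575 genes. Cybb (ENSMUSG00000015340) stood at 34.6, 29.6 and 33.8 CPM in the CGD and 254, 261 and 274 CPM in the WT libraries, log2 fold change -3.01 ± 0.19, adjusted p = 6.37e-08, so the genotype labels held. Ly6g, the sorting marker of neutrophils, was detected in every library, at 123, 80.5 and 55.8 and 6.78, 99.9 and 24.7 CPM, and lowest in WT CD101-negative replicate 1.

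Between CGD CD101-positive and WT CD101-negative cells 756 genes (4.56% of those tested) differed, 380 of them higher in CGD CD101-positive cells (2.29%) and 376 lower (2.27%). In the list counts of this comparison, rose and fell mean passed as higher and as lower, and these shares are their background. All CGD CD101-positive libraries were above all WT CD101-negative ones for 10.6% of all genes and below for 10.1%. For 6296 genes (38%) the 95% interval of the difference lay wholly within 2-fold in either direction, and for 9540 the data settled neither a call nor that bound. The 38% is the background of the list counts bounded within 2-fold. That bound held for 6162 genes (37.2%) in CGD against WT CD101-positive cells and for 7036 (42.4%) between the WT sorts. Scaling by library size alone left the number of calls at 753 but split them into 249 higher and 504 lower, since the median of all genes moved from -0.01 to -0.17. Without WT CD101-negative replicate 3 the count was 277, without CGD CD101-positive replicate 2 it was 314, and without CGD CD101-positive replicate 1 it was 441. In the same fit, CGD CD101-positive against WT CD101-positive cells gave 878 calls (5.3%; 2.77% higher and 2.53% lower), and WT CD101-negative against WT CD101-positive cells gave 73 (0.44%; 0.41% higher and 0.0302% lower). The second count was 320 without CGD CD101-positive replicate 2, 578 without its replicate 3, and 443 and 339 without WT CD101-positive replicates 2 and 3. The third was 400 without WT CD101-negative replicate 2, 40 and 14 without its replicates 1 and 3, and 17, 16 and 3 without WT CD101-positive replicates 1, 2 and 3, so each of the 6 libraries moved it. These comparisons share libraries with the first, which as fitted equals the second minus the third for every gene. The difference between the CD101 sorts (negative against positive) was itself different between the genotypes, by the interaction term of the fit, for 141 genes (0.851%), positive (CGD minus WT) for 30 (0.181%) and negative for 111 (0.67%), and the interaction was bounded within 2-fold for 19.1% of genes.

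By overall distance, the CGD CD101-positive libraries lay no nearer to WT CD101-negative than to WT CD101-positive ones. The root mean square difference in log2 CPM over all tested genes averaged 0.975 (SD 0.0638 over 9 library pairs, range 0.864 to 1.06) to WT CD101-negative and 0.975 (SD 0.0830, range 0.849 to 1.10) to WT CD101-positive libraries. The CGD CD101-positive libraries differed among themselves by 0.772 on average and from CGD CD101-negative libraries by 1.03. Taken singly, replicate 1 lay at 1.04 from the WT CD101-negative and 0.995 from the WT CD101-positive libraries, replicate 2 at 0.949 from both, and replicate 3 at 0.939 and 0.981. The order of the 2 WT groups thus differed between the replicates. The WT groups lay 0.914 from each other, near the 0.882 within WT CD101-negative and 0.884 within WT CD101-positive libraries. The measure hardly separated the WT groups, so near-equal distances to both say little about which one the CGD cells resemble. The pairs share libraries and are given as a description with no test.

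**Figure D1:**
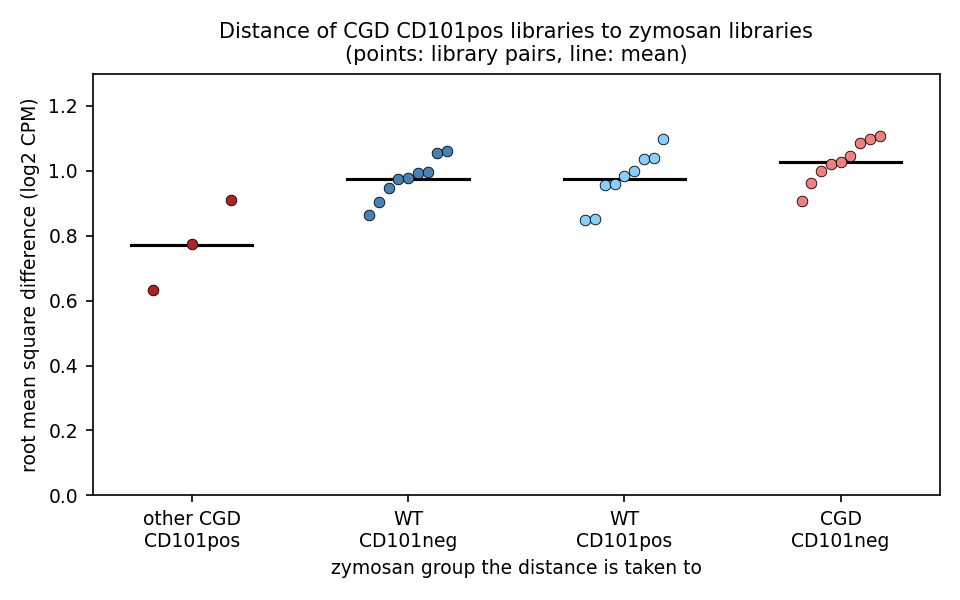
Root mean square difference in log2 CPM (y axis) between each CGD zymosan CD101-positive library and the zymosan libraries of the group named on the x axis; points are library pairs and lines their means. The means to WT CD101-negative and to WT CD101-positive libraries are both 0.975, against 0.772 within the CGD group.

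Among 10 surface proteins of mature neutrophils, 2 innate receptors (20%, against 2.29% of all genes) passed as higher in CGD CD101-positive than in WT CD101-negative cells. None passed as lower, though Cd101, also on the list, was lower in every CGD library, as given below. The median log2 fold change of the list was 0.17, against -0.01 over all genes. Fcgr4, an activating receptor for IgG, stood at 474, 375 and 327 CPM in CGD and 103, 214 and 124 CPM in WT cells. All CGD libraries were above all WT libraries, as for 10.6% of all genes tested, while for 10.1% all were below (log2 fold change 1.42 ± 0.23, adjusted p = 0.00161). Fpr2, a receptor for formylated and other peptides, stood at 544, 438 and 326 and 97.4, 256 and 155 CPM, again without overlap (log2 fold change 1.36 ± 0.35, adjusted p = 0.0284). Its call was lost without CGD CD101-positive replicate 1 or 2 or WT CD101-negative replicate 1 or 3, with an adjusted p of up to 0.139.

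The gene of the sorting marker itself did not follow the sort across genotypes. Cd101 (ENSMUSG00000086564) stood at 95.9, 106 and 112 CPM in CGD CD101-positive cells and at 159, 185 and 156 CPM in WT CD101-negative cells, so every library sorted as positive in CGD carried less Cd101 transcript than every library sorted as negative in WT. Such a separation in that direction held for 10.1% of all genes. The difference in Cd101 (log2 fold change -0.67 ± 0.22, adjusted p = 0.098) did not pass. WT CD101-positive cells had 451, 322 and 436 CPM, which made the same CGD cells lower than their WT counterparts by 1.95 on the log2 scale (adjusted p = 0.000101). The WT sorts differed by -1.28 (adjusted p = 0.0148).

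Of the 10 mature surface genes 5 were bounded within 2-fold between the groups, against 38% of all genes. Cxcr2, which guides neutrophils along CXC chemokines, stood at 1769, 1798 and 1606 CPM in CGD and 891, 2709 and 1406 CPM in WT libraries, with the CGD libraries inside the WT range (95% interval of the log2 difference -0.63 to 0.72). Csf3r, the G-CSF receptor, stood at 2976, 2847 and 2739 and 2210, 4511 and 2851 CPM (95% interval -0.68 to 0.36). The same bound held for Itgam and Itgb2, the chains of the integrin Mac-1. Fpr1 and Ly6g neither passed nor met the bound, at 0.85 and 0.98.

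None of the 7 surface genes of immature stages passed, against 4.56% of all genes. Of the 7, 3 (Cd93, Cd24a and Itga4) were bounded within 2-fold, near the 38% of all genes. These counts are no result about the list. Cxcr4, the receptor that holds neutrophils in the marrow, stood at 188, 142 and 110 CPM in CGD and 326, 120 and 271 CPM in WT cells (log2 fold change -0.71 ± 0.31, adjusted p = 0.237), and WT replicate 2 lay within the CGD range. Cd63, a tetraspanin of primary granules, stood at 657, 597 and 408 and 938, 502 and 1494 CPM (log2 fold change -0.82 ± 0.42, adjusted p = 0.321). Kit and Cd34, markers of progenitors, gave -0.34 and -0.17.

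**Figure D2:**
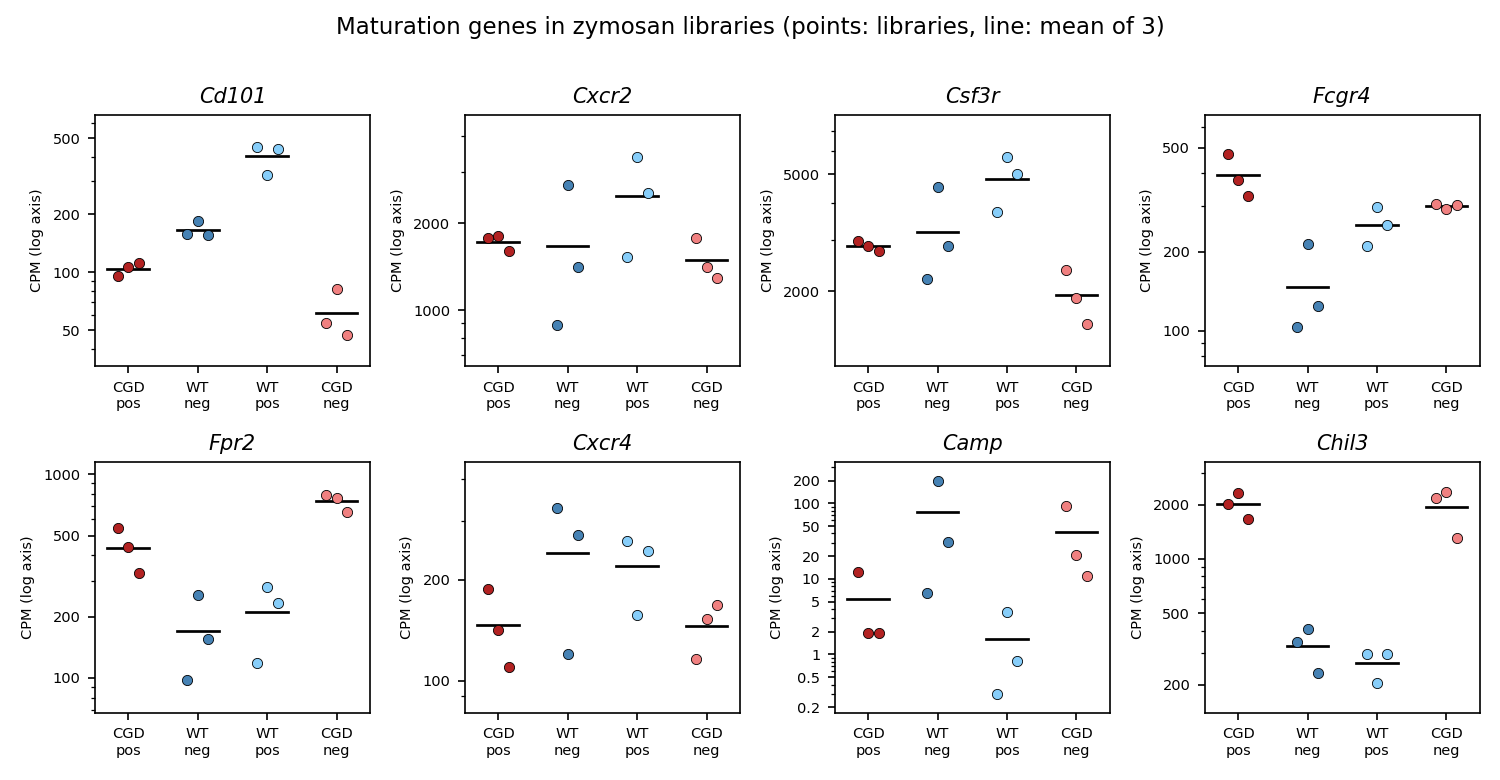
Expression of 8 maturation genes in CPM (y axis, log scale) in the 4 zymosan groups (pos and neg give the CD101 sort); points are libraries and lines the means of 3. Cd101 is lower in all CGD CD101-positive libraries (95.9 to 112 CPM) than in all WT CD101-negative libraries (156 to 185 CPM), while Camp spreads widely within WT CD101-negative cells (6.59 to 195 CPM).

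Granule transcripts, which mark the developmental age of a neutrophil, gave few calls. The 6 primary granule genes tested all had positive log2 fold changes, from 0.31 (Ctsc) to 2.06 (Ms4a3) with a median of 0.61, and none passed. With 1 library left out the median ran from 0.32 to 0.92. The summed level of the list was 195 to 248 CPM in CGD and 168 to 180.2 CPM in WT libraries, without overlap. Single genes were without overlap in that direction in 10.6% of cases. Such a sum is weighted towards the members with the highest levels, so it does not show a rise of the whole list. Ctsg and Bpi had too few counts to be tested. Of 18 secondary and tertiary granule genes, Chil3 rose and Fcnb fell, with a list median of -0.04. That was 5.56% of the list each way, against 2.29% higher and 2.27% lower of all genes. Chil3, which encodes the chitinase-like protein Ym1 and is made by immature neutrophils and by alveolar macrophages, stood at 2011, 2333 and 1672 CPM in CGD and 347, 406 and 231 CPM in WT libraries (log2 fold change 2.61 ± 0.42, adjusted p = 0.00137). Fcnb, which encodes a ficolin of early granules, was at most 0.0414 CPM in CGD, too few reads for a fold change to be given, and stood at 0.0730, 1.74 and 0.510 CPM in WT cells (adjusted p = 0.0207). Its call was lost without CGD CD101-positive replicate 1, 2 or 3 or WT CD101-negative replicate 2, with an adjusted p of up to 0.0992.

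WT CD101-negative replicate 2 carried far more of the late granule transcripts than the other WT CD101-negative libraries. These 3 genes were chosen after their values were seen. Camp, which encodes the antimicrobial peptide CRAMP, stood at 12.2, 1.92 and 1.91 CPM in CGD and 6.59, 195 and 30.7 CPM in WT cells (log2 fold change -3.86 ± 1.46, adjusted p = 0.171). Ltf, which encodes lactoferrin, stood at 87.5, 67.4 and 54.3 and 83.1, 1556 and 250 CPM (log2 fold change -3.17 ± 1.02, adjusted p = 0.0959), and Ngp, a cathelin-like granule protein, at 1631, 630 and 348 and 117, 3192 and 592 CPM (log2 fold change -0.58 ± 1.19, adjusted p = 0.875). None of the 3 passed, and their groups overlapped. The median of the secondary and tertiary granule list, -0.04 over all libraries, was 0.92 without that library, 0.02 and 0.08 without CGD CD101-positive replicates 2 and 3, and -0.34 without WT CD101-negative replicate 1. Mmp9, Mmp25 and Slpi, of tertiary granules and cytosol, were bounded within 2-fold.

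Of 12 transcription factors of granulopoiesis, 8 were bounded within 2-fold: Cebpa, Cebpb and Cebpe of the C/EBP family, Spi1 (PU.1), Runx1, Irf8, Klf2 and Klf4. Klf6, a zinc finger factor of activated myeloid cells, stood at 830, 836 and 961 CPM in CGD and 1387, 1634 and 2003 CPM in WT libraries and fell (log2 fold change -0.94 ± 0.21, adjusted p = 0.0149). That call was lost without CGD CD101-positive replicate 1 or 2 or WT CD101-negative replicate 3 (adjusted p up to 0.108). Of 29 cell cycle genes, Rrm2, a subunit of ribonucleotide reductase, rose (log2 fold change 1.45 ± 0.37, adjusted p = 0.0277) and Cenpa, the centromeric histone, fell (log2 fold change -1.09 ± 0.25, adjusted p = 0.0163), while Pcna, Mcm3, Mcm7, Stmn1 and Aurka were bounded within 2-fold. The calls made up 3.45% of the list each way, near the 2.29% and 2.27% of all genes, and are no result about the list. The highest level of Rrm2 in any of the 6 libraries was 4.33 CPM. The Rrm2 call was lost without CGD CD101-positive replicate 1, 2 or 3 or WT CD101-negative replicate 3 (adjusted p up to 0.161), and the Cenpa call without CGD CD101-positive replicate 2 or 3 or WT CD101-negative replicate 2 (up to 0.0836).

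Genes of general cell machinery differed by less than 2-fold almost throughout. All 42 ribosomal protein genes and all 18 measured nuclear genes of oxidative phosphorylation were bounded within 2-fold, as were 12 of 13 mitochondrially encoded genes, and none passed. Of the 9 genes of the NADPH oxidase, Cybb fell and 7 were bounded within 2-fold, among them Cyba (p22phox), the cytosolic subunit gene Ncf4, Rac2 and the chaperone Cybc1. Hvcn1, the proton channel that balances the charge moved by the oxidase, stood at 21.5, 19.1 and 33.5 CPM in CGD and 45.7, 20.1 and 53.7 CPM in WT libraries (log2 fold change -0.69 ± 0.34, adjusted p = 0.293). Of 17 regulators of NF-kB, 13 were bounded within 2-fold and Nfkb1, which encodes p105 and p50, rose from 51.8, 55.5 and 53.5 CPM in WT to 146, 138 and 99.8 CPM in CGD libraries (log2 fold change 1.26 ± 0.17, adjusted p = 0.000472).

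The genes that separated the groups most are given with their values in the related comparisons. These share the libraries that chose the genes, so the values are a description. The 10 largest increases were Bcl2l15, Cxcl9, Tgtp1, Gbp2b, Mmp12, Mt2, St7, Cxcl10, Rhoh and Ifi47, with log2 fold changes from 3.09 to 4.66. All 10 also passed against WT CD101-positive cells (2.74 to 4.19), and none passed between the WT sorts (-1.11 to 0.68). Rhoh, a small GTP-binding protein of blood cells without GTPase activity, stood at 370, 395 and 267 CPM in CGD CD101-positive, 37.6, 34.4 and 41.1 CPM in WT CD101-negative and 50.2, 38.2 and 48.5 CPM in WT CD101-positive libraries (log2 fold change 3.19 ± 0.22, adjusted p = 1.33e-07). All CGD libraries were far above both WT groups, which overlapped each other. Bcl2l15, a BCL2 family member, spread widely in CGD cells, at 50.5, 19.0 and 7.49 CPM, against 1.01, 0.632 and 1.38 CPM in WT CD101-negative cells (log2 fold change 4.66 ± 0.69, adjusted p = 0.000973). Mt2, a metal-binding metallothionein, stood at 37.4, 38.4 and 30.7 and 3.83, 2.93 and 2.69 CPM (log2 fold change 3.49 ± 0.32, adjusted p = 7.18e-06).

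The 10 largest decreases were Alox15, Gdf15, Nqo1, Igkc, Mreg, Cybb, Gas2l3, Gclm, Fnip2 and Npc1, from -5.10 to -2.41. Of these, Cybb and Igkc passed against WT CD101-positive cells, where the 10 ranged from -2.95 to 0.67. Between the WT sorts 6 passed (Nqo1, Gdf15, Igkc, Gas2l3, Fnip2 and Npc1), all higher in WT CD101-negative cells. Alox15, Mreg and Gclm passed in neither of the related comparisons. With the replicate number as a block, 3 of the 6 no longer passed there, Npc1 (adjusted p = 0.0559), Gas2l3 (0.0632) and Igkc (0.0726). Gdf15, a stress-induced cytokine, stood at 2.63, 4.26 and 5.36 CPM in CGD CD101-positive cells, 30.5, 11.1 and 109 CPM in WT CD101-negative cells and 3.10, 1.04 and 4.43 CPM in WT CD101-positive cells (log2 fold change -3.61 ± 0.77, adjusted p = 0.0121). Its WT CD101-negative levels were above all libraries of the other groups but spread about their own mean, with replicate 3 highest. Fnip2, a folliculin-interacting protein, stood at 14.2, 17.7 and 18.5, 93.3, 57.1 and 170 and 15.6, 9.44 and 24.5 CPM in the same order (log2 fold change -2.67 ± 0.48, adjusted p = 0.00311). Mreg, a melanoregulin of lysosome-related organelles, stood at 30.6, 34.8 and 31.5 CPM in CGD and 275, 108 and 445 CPM in WT CD101-negative libraries (log2 fold change -3.10 ± 0.81, adjusted p = 0.0378). Calls were lost without CGD CD101-positive replicate 1 or 2 or WT CD101-negative replicate 3 for Gdf15 (adjusted p up to 0.0912), and without any one of 5 of the 6 libraries for Mreg (up to 0.168) and for Gas2l3 (up to 0.137), in each case highest without WT CD101-negative replicate 3. The exception was WT CD101-negative replicate 2.

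**Figure D3:**
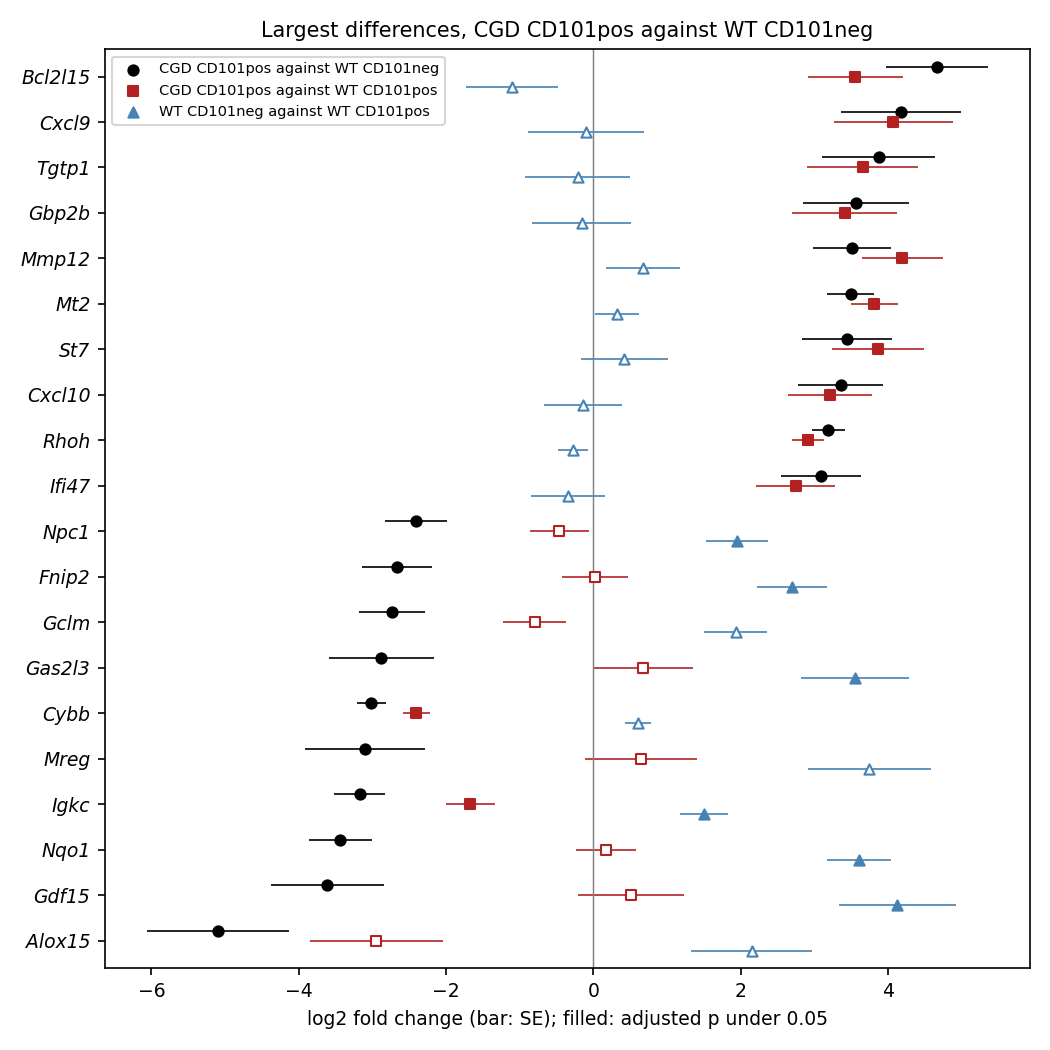
Log2 fold change (x axis; bars are SE, filled symbols passed) of the 10 largest increases and decreases in CGD CD101-positive against WT CD101-negative cells (circles), with CGD against WT CD101-positive cells (squares) and WT CD101-negative against WT CD101-positive cells (triangles), which share libraries. For the increases the squares run from 2.74 to 4.19 and the triangles from -1.11 to 0.68; for the decreases the squares run from -2.95 to 0.67 and the triangles from 0.61 to 4.13.

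Of 23 genes of the antioxidant and NRF2 list, 9 fell in CGD CD101-positive cells, none rose and 11 were bounded within 2-fold, with a median of -0.54. For 7 the log2 fold change was positive without passing, among them Fth1, the ferritin heavy chain (0.47 ± 0.22), which stood at 61805, 44300 and 36128 CPM in CGD and 32682, 31712 and 38140 CPM in WT libraries and was the largest part of the list's sum. That sum overlapped between the groups, at 76013, 55471 and 46223 CPM in CGD and 51238, 49377 and 62927 CPM in WT CD101-negative libraries. NRF2 is a transcription factor that oxidants release from its inhibitor KEAP1 and that binds antioxidant response elements near its targets. Nqo1 (ENSMUSG00000003849), a quinone reductase, stood at 2.73, 2.41 and 1.59 CPM in CGD and 20.3, 13.6 and 39.0 CPM in WT CD101-negative libraries, and at 1.84, 1.68 and 2.44 CPM in WT CD101-positive ones (log2 fold change -3.44 ± 0.43, adjusted p = 0.000168). Hmox1, which degrades haem, stood at 164, 146 and 214, 476, 580 and 871 and 176, 221 and 208 CPM in that order (log2 fold change -1.88 ± 0.26, adjusted p = 0.000386). Prdx1, a peroxiredoxin that reduces peroxides, stood at 135, 121 and 133, 362, 320 and 572 and 148, 77.1 and 88.0 CPM (log2 fold change -1.69 ± 0.24, adjusted p = 0.000511). For each of the 3 genes every WT CD101-negative library was above every library of the other groups, and its replicate 3 was highest.

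Srxn1, which restores oxidised peroxiredoxins, stood at 21.0, 16.2 and 14.9 CPM in CGD and 52.9, 41.8 and 102 CPM in WT CD101-negative libraries (log2 fold change -1.92 ± 0.30, adjusted p = 0.00129). Gclm, the regulatory subunit of the enzyme that begins glutathione synthesis, stood at 5.03, 5.40 and 4.48 and 20.8, 28.5 and 49.6 CPM (log2 fold change -2.73 ± 0.45, adjusted p = 0.00158). The other 4 that fell were Sqstm1 (the autophagy receptor p62, -1.80), Gclc (the catalytic partner of Gclm, -1.66), Ftl1 (ferritin light chain, -1.35) and Keap1 itself (-0.94). Reads of Ftl1 may be shared with its processed copies. Without any one library 7 to 9 of the 23 passed. Calls were lost without CGD CD101-positive replicate 1, 2 or 3 or WT CD101-negative replicate 1 or 3 for Gclc (adjusted p up to 0.241) and without CGD CD101-positive replicate 1 or 2 or WT CD101-negative replicate 3 for Keap1 (up to 0.293), and neither passed under library size scaling (0.0563 and 0.0793). Set beside this, 4 members rose and 1 fell in CGD against WT CD101-positive cells (2.77% and 2.53% of all genes). In WT CD101-negative against WT CD101-positive cells 7 rose (0.41% of all genes).

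The promoters of the genes that fell were searched for the core of the antioxidant response element, TGACNNNGC on either strand, in RefSeq windows of 300 bases (250 before to 50 from the start) on GRCm38.p6. It was found in 3 of the 7 genes with a window, in 6 of 19 of the whole list, and in 12.4% of all 32851 promoter windows. They are shown because these genes fell together, with the match in capitals, which lies on the opposite strand in all 3 and so reads as the reverse complement.
Gclm, chr3:122245307-122245606, plus strand: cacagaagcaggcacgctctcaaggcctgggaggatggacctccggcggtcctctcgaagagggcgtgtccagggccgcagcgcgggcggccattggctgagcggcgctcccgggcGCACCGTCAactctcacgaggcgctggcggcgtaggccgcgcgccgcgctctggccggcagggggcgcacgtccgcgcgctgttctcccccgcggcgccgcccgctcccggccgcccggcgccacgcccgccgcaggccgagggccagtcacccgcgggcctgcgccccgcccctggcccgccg
Prdx1, chr4:116685349-116685648, plus strand: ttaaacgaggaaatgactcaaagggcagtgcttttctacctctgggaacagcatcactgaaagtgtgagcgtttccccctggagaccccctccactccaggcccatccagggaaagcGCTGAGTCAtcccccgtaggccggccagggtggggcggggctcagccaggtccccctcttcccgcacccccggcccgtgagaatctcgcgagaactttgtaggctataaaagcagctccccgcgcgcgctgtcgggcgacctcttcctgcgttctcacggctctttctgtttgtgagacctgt
Srxn1, chr2:152105274-152105573, plus strand: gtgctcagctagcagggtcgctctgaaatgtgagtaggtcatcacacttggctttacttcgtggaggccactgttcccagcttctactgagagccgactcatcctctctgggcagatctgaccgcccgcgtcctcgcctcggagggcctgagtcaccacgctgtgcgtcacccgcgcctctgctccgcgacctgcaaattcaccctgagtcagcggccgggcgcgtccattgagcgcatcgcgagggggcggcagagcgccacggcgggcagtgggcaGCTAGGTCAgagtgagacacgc
In Gclm and Prdx1 the match began 134 and 133 bases before the transcription start, and in Srxn1 it began 28 bases after it. The Nqo1 window held no match to these letters.

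Of 21 lysosomal genes 7 fell (33.3%, against 2.27% of all genes), none rose and 7 were bounded within 2-fold (median -0.36). Npc1, which exports cholesterol from lysosomes, stood at 9.77, 16.6 and 22.6 CPM in CGD and 81.2, 47.2 and 132 CPM in WT CD101-negative libraries (log2 fold change -2.41 ± 0.42, adjusted p = 0.00265). Psap, the precursor of the saposins, stood at 1076, 704 and 879 and 2235, 1611 and 2752 CPM (log2 fold change -1.31 ± 0.25, adjusted p = 0.00471), and the protease gene Ctsd at 2066, 1972 and 2267 and 5035, 3814 and 5344 CPM (log2 fold change -1.17 ± 0.21, adjusted p = 0.00283). No CGD library reached a WT library for these 3 genes, as for 10.1% of all genes in that direction. Tfeb, the transcription factor of lysosome formation, stood at 31.1, 27.2 and 41.7 and 63.2, 67.9 and 106 CPM (log2 fold change -1.24 ± 0.27, adjusted p = 0.0116), and Gla, Hexa and Lamp1 fell by 1.15, 0.96 and 0.87 on the log2 scale. The list count was 3 without WT CD101-negative replicate 3 and 3 without CGD CD101-positive replicate 2, 4 without CGD replicate 1, and 9 without WT replicate 2. The Tfeb call was lost without CGD CD101-positive replicate 1 or 2 or WT CD101-negative replicate 3 (adjusted p up to 0.094), the Hexa call without CGD CD101-positive replicate 2 or WT CD101-negative replicate 3 (up to 0.142), and the calls of Gla and Lamp1 without any one library but WT CD101-negative replicate 2 (up to 0.141 and 0.236). Between the WT sorts 1 of the 21 genes, Npc1, passed (0.44% of all genes did), though not with the replicate block (adjusted p = 0.0559).

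**Figure D4:**
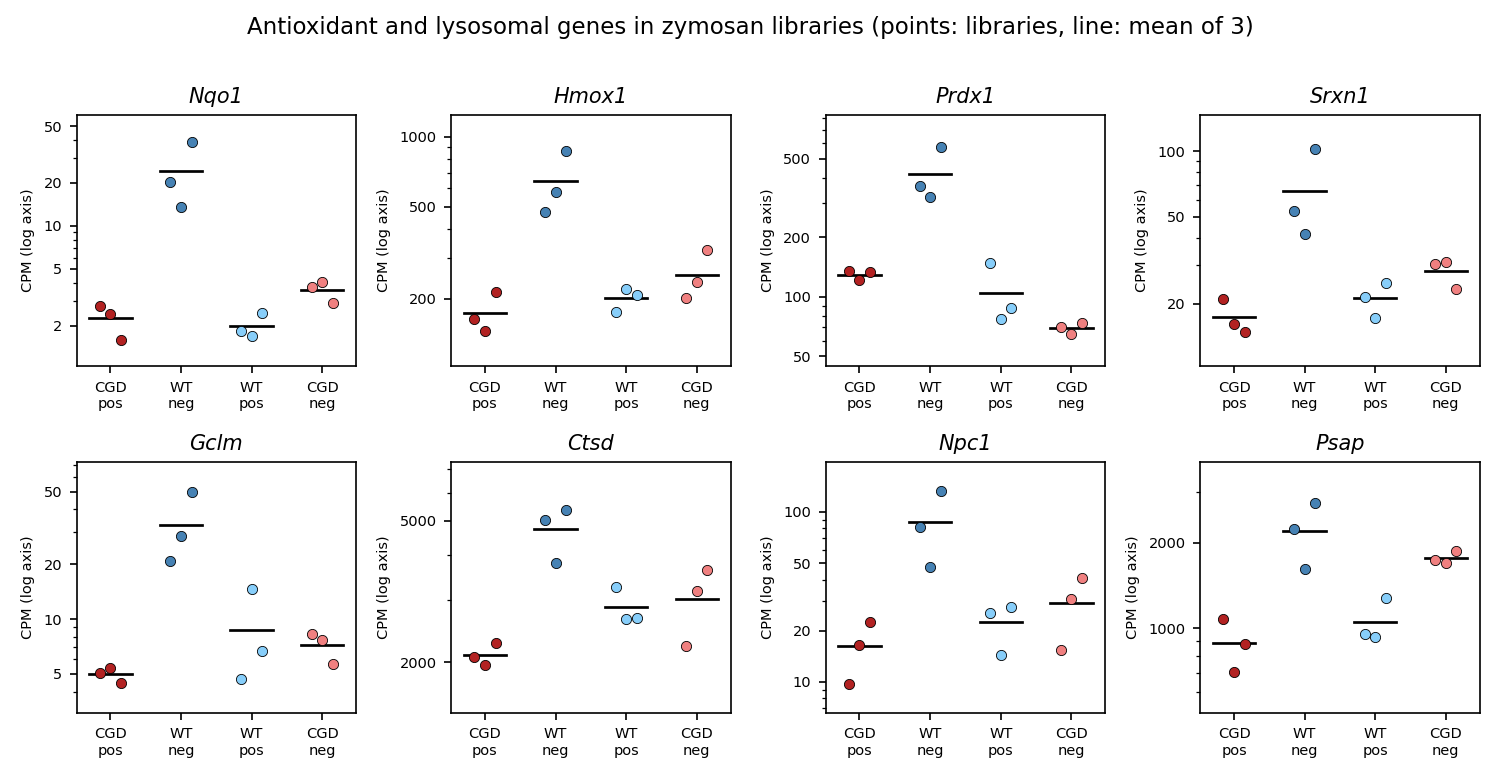
Expression of 5 antioxidant genes (Nqo1 to Gclm) and 3 lysosomal genes (Ctsd, Npc1, Psap) in CPM (y axis, log scale) in the 4 zymosan groups; points are libraries and lines the means of 3. For Nqo1 the WT CD101-negative libraries lie at 13.6 to 39.0 CPM and the CGD CD101-positive libraries at 1.59 to 2.73 CPM, close to the WT CD101-positive ones.

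Of 34 interferon-stimulated genes 9 rose in CGD CD101-positive cells and none fell, with a median of 1.19. Interferons act through STAT and IRF factors, and the immunity-related GTPases that they induce attack the vacuoles of intracellular microbes. Ifi47, one of these GTPases, stood at 144, 175 and 406 CPM in CGD and 31.2, 26.9 and 27.0 CPM in WT CD101-negative libraries (log2 fold change 3.09 ± 0.54, adjusted p = 0.0027). Irgm1, which regulates the other members, stood at 159, 189 and 392 and 40.1, 51.0 and 41.3 CPM (log2 fold change 2.48 ± 0.44, adjusted p = 0.00281), and Irf1, an interferon-induced transcription factor, at 621, 796 and 1207 and 283, 211 and 256 CPM (log2 fold change 1.80 ± 0.28, adjusted p = 0.00115). CGD replicate 3 was highest for all 3 genes, and the other CGD libraries were still above all WT libraries. Tgtp1 stood at 12.5, 15.7 and 44.5 and 1.68, 1.21 and 2.07 CPM (log2 fold change 3.87 ± 0.76, adjusted p = 0.0072), though its reads may be shared with its close copy Tgtp2, which also rose. Igtp, Slfn4, Isg15 and Ifih1 completed the 9, with log2 fold changes of 2.01, 1.87, 1.65 and 1.15. Gbp2b, a guanylate-binding protein outside the list, stood at 8.40, 19.9 and 57.8 and 2.22, 1.57 and 3.46 CPM (log2 fold change 3.57 ± 0.72, adjusted p = 0.00831).

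How many interferon-stimulated genes passed depended on single libraries. The calls of Igtp, Slfn4, Isg15, Ifih1 and Tgtp2 were each lost without CGD CD101-positive replicate 3, without WT CD101-negative replicate 1 and without its replicate 3 (adjusted p up to 0.1, 0.144, 0.0667, 0.146 and 0.188). Without CGD CD101-positive replicate 3 it was 4 and the median 0.70, without WT CD101-negative replicate 1 or 3 it was 4 with medians of 1.06 and 1.14, and without CGD replicate 2 it was 6. In CGD against WT CD101-positive cells 5 of the 34 rose, against 2.77% of all genes. Between the WT sorts none passed, where 0.44% of all genes did. The core of the interferon-stimulated response element, GAAANNGAA on either strand, lay in the promoter windows of 6 of the 9 genes that rose, of 17 of the 27 list members with a window, and of 8.56% of all windows. The Irgm1 window (GRCm38.p6, RefSeq) is shown because it holds a pair of overlapping matches, marked by the capitals, the first of which began 30 bases before the transcription start.
Irgm1, chr11:48871371-48871670, minus strand: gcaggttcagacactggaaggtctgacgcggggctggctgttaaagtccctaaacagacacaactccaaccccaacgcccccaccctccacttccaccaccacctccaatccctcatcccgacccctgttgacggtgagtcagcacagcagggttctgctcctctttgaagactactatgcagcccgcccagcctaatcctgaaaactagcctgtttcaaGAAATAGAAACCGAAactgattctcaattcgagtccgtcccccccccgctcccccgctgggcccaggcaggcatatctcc

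Chemokine genes rose in 7 of 19 cases and none fell (median 0.61). Among them were the genes of the CXCR3 ligands, which draw T and NK cells and are induced by interferon. Only transcripts were measured, and whether each gene yields an active protein in this strain was not tested. Cxcl10 stood at 224, 372 and 779 CPM in CGD and 60.4, 28.7 and 44.9 CPM in WT CD101-negative libraries (log2 fold change 3.36 ± 0.58, adjusted p = 0.00255). Cxcl9 stood at 5.42, 8.86 and 20.7 and 0.584, 0.440 and 0.910 CPM (log2 fold change 4.17 ± 0.82, adjusted p = 0.00656), and Cxcl11 at 2.75, 4.77 and 11.5 and 0.424, 0.287 and 0.328 CPM (log2 fold change 4.18 ± 0.80, adjusted p = 0.00544). As with the interferon-stimulated genes, CGD replicate 3 was highest in each. Cxcl3, which attracts neutrophils through CXCR2, was instead even across the CGD libraries at 3795, 3849 and 3020 CPM, against 741, 356 and 611 CPM in WT cells (log2 fold change 2.64 ± 0.29, adjusted p = 4.96e-05). The other 3 were Cxcl5, also a CXCR2 ligand, and Ccl12 and Ccl17, ligands of CCR2 and CCR4, at 3.43, 2.29 and 2.66. Without WT CD101-negative replicate 3 the count was 4, and Cxcl5, Ccl12 and Ccl17 did not pass. With 1 library left out their adjusted p reached 0.0872, 0.0695 and 0.118. The Cxcl5 call was also lost without CGD CD101-positive replicate 2 or WT CD101-negative replicate 1, and the Ccl17 call without CGD CD101-positive replicate 3 or WT CD101-negative replicate 2. In CGD against WT CD101-positive cells 11 of the 19 rose, against 2.77% of all genes. None passed between the WT sorts, where 0.44% of all genes did.

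Of 19 cytokine genes, Il12a and Il1b rose. Il12a, the p35 subunit shared by IL-12 and IL-35, stood at 28.3, 36.2 and 29.8 CPM in CGD and 8.50, 9.70 and 8.72 CPM in WT libraries (log2 fold change 1.81 ± 0.27, adjusted p = 0.00086). Il1b, which encodes the pyrogenic cytokine IL-1β, stood at 15888, 18228 and 15077 and 10114, 10986 and 10875 CPM (log2 fold change 0.62 ± 0.17, adjusted p = 0.047), a small difference whose call was lost without any one of the 6 libraries (adjusted p up to 0.215). Of 21 genes of the IL-1 pathway and inflammasome 5 rose and none fell (median 0.54). Il1r2, the decoy receptor that binds IL-1 without signalling, stood at 19437, 15380 and 9816 and 3443, 4689 and 3800 CPM (log2 fold change 1.90 ± 0.32, adjusted p = 0.00198), with no overlap. Il18, a related cytokine, stood at 12.1, 15.1 and 18.1 and 4.76, 5.13 and 3.58 CPM (log2 fold change 1.75 ± 0.29, adjusted p = 0.0018), and Il18rap, a subunit of its receptor, at 264, 298 and 175 and 58.2, 113 and 90.8 CPM (log2 fold change 1.49 ± 0.31, adjusted p = 0.00878). Irak3, which restrains signalling by Toll-like receptors, and Mefv, which encodes pyrin, rose by 0.83 and 0.89 on the log2 scale. Calls were lost without CGD CD101-positive replicate 2 for Il18rap (adjusted p 0.0523) and without CGD CD101-positive replicate 2 or 3 or WT CD101-negative replicate 2 for Irak3 (up to 0.0818), and without CGD CD101-positive replicate 2 or 3 or WT CD101-negative replicate 2 or 3 for Mefv (up to 0.128). The list count was 2 without CGD replicate 2, 3 without CGD replicate 3 and 3 under library size scaling.

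Genes of metal binding, glycolysis and protein folding each had a few members that changed. Both metallothionein genes rose, Mt1 from 51.9, 64.7 and 43.7 CPM in WT to 493, 309 and 191 CPM in CGD libraries (log2 fold change 2.63 ± 0.35, adjusted p = 0.000293), and the 4 zinc transporter and sensor genes beside them did not pass. Of 26 genes of glycolysis and hypoxia, 3 rose, 2 fell and 14 were bounded within 2-fold. Pfkp, a phosphofructokinase, stood at 163, 141 and 137 CPM in CGD and 50.8, 50.0 and 51.6 CPM in WT libraries (log2 fold change 1.53 ± 0.19, adjusted p = 0.000168), and Egln3, an oxygen-sensing hydroxylase, at 85.6, 83.9 and 78.1 and 31.1, 20.7 and 37.8 CPM (log2 fold change 1.47 ± 0.32, adjusted p = 0.0127). The hexokinases went opposite ways, Hk2 up (log2 fold change 0.93 ± 0.21, adjusted p = 0.0148) and Hk3 down (-1.07), and Ndrg1, a hypoxia-induced gene, fell (log2 fold change -1.16 ± 0.19, adjusted p = 0.00158). The Hk2 call was lost without CGD CD101-positive replicate 2 or 3 or WT CD101-negative replicate 3 (adjusted p up to 0.0589) and the Hk3 call without CGD CD101-positive replicate 1 or 2 or WT CD101-negative replicate 2 or 3 (up to 0.084). Xbp1, the transcription factor of the unfolded protein response, stood at 1027, 938 and 773 and 279, 225 and 267 CPM (log2 fold change 1.83 ± 0.20, adjusted p = 4.84e-05), with 14 of the 20 genes of that list bounded within 2-fold. The folding proteins Hspa5 and Manf rose by 0.69 and 0.81 on the log2 scale, and both calls were lost without any one of 5 of the 6 libraries (adjusted p up to 0.118 and 0.145). The exception was WT CD101-negative replicate 1. Under library size scaling neither passed (0.249 and 0.266).

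Of 22 genes of fungal and microbial recognition 5 rose and 1 fell, and the main zymosan receptors were not among them. Cd14, a co-receptor for lipopolysaccharide, stood at 47561, 39364 and 28721 CPM in CGD and 15896, 19317 and 16419 CPM in WT libraries (log2 fold change 1.16 ± 0.24, adjusted p = 0.00717). Nod2, a sensor of bacterial cell wall fragments, stood at 72.7, 81.6 and 68.4 and 43.0, 48.1 and 40.0 CPM (log2 fold change 0.76 ± 0.15, adjusted p = 0.00454), and Nod1 also rose (0.90). Mrc1, the mannose receptor of macrophages, stood at 17.5, 31.8 and 49.0 and 12.1, 9.87 and 6.55 CPM (log2 fold change 1.78 ± 0.35, adjusted p = 0.00562), and Ptx3, a soluble pattern recognition molecule, was at most 0.861 CPM in any library. The Ptx3 call was lost without CGD CD101-positive replicate 2 or WT CD101-negative replicate 3 (adjusted p up to 0.0898), and the Nod1 call without any one library but WT CD101-negative replicate 3 (up to 0.0903) and under library size scaling (0.179). Tlr5, the flagellin receptor, fell (-0.91), a call lost without any one library but WT CD101-negative replicate 1 (adjusted p up to 0.131). Without CGD CD101-positive replicate 2 the count of genes that rose was 3. Clec7a (Dectin-1) and Tlr2, which bind zymosan, differed by 0.08 ± 0.19 and -0.21 ± 0.19 and did not pass; they are named for that role.

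Antigen presentation genes rose in 4 of 19 cases, with 12 bounded within 2-fold. Cd80, a co-stimulatory ligand for T cells, stood at 106, 125 and 127 CPM in CGD and 60.4, 56.2 and 60.6 CPM in WT libraries (log2 fold change 1.02 ± 0.16, adjusted p = 0.00129). Nlrc5, the activator of class I genes, stood at 24.1, 33.4 and 38.8 and 12.6, 12.1 and 17.0 CPM (log2 fold change 1.21 ± 0.28, adjusted p = 0.0177), Tap1, a peptide transporter subunit, at 88.5, 97.6 and 191 and 34.7, 65.4 and 47.7 CPM (log2 fold change 1.35 ± 0.36, adjusted p = 0.039), and the class I gene H2-M2 at 13.6, 5.35 and 12.7 and 1.78, 1.09 and 1.26 CPM (log2 fold change 2.93 ± 0.65, adjusted p = 0.0133). The groups did not overlap for any of the 4 genes, as for 10.6% of all genes in that direction. Under library size scaling 2 of the list rose. Calls were lost without CGD CD101-positive replicate 2 or 3 or WT CD101-negative replicate 1 for Nlrc5 (adjusted p up to 0.0689), without CGD CD101-positive replicate 2 or 3 or WT CD101-negative replicate 1 or 3 for Tap1 (up to 0.185) and without CGD CD101-positive replicate 1 or WT CD101-negative replicate 3 for H2-M2 (up to 0.0808).

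All calls among the immediate early genes were lower, while survival and death genes changed in both directions. Fosb, an AP-1 subunit, stood at 141, 152 and 181 CPM in CGD and 588, 392 and 609 CPM in WT CD101-negative libraries (log2 fold change -1.75 ± 0.27, adjusted p = 0.00118). Fos, its close relative, stood at 1097, 1386 and 1241 and 1882, 2598 and 2612 CPM (log2 fold change -0.93 ± 0.21, adjusted p = 0.0167), and Atf3, a stress-induced factor, at 155, 161 and 242.6 and 652, 247 and 733 CPM (log2 fold change -1.55 ± 0.37, adjusted p = 0.0201). These were the 3 of 19 immediate early genes that passed (15.8%, against 2.27% of all genes as lower). Their groups did not overlap, as for 10.1% of all genes in that direction, and 10 others were bounded within 2-fold. Of 19 genes of survival and death 1 rose (5.26%) and 3 fell (15.8%), against 2.29% and 2.27% of all genes, with a median of 0.09. With 1 library left out 0 to 3 fell. Casp8, the initiator caspase of death receptors, rose from 31.7, 27.0 and 27.2 CPM in WT to 76.7, 90.8 and 77.9 CPM in CGD libraries (log2 fold change 1.52 ± 0.21, adjusted p = 0.000413). The pro-apoptotic genes Bax and Bid fell by 1.23 and 0.82 on the log2 scale. Calls were lost without CGD CD101-positive replicate 1 or WT CD101-negative replicate 3 for Fos (adjusted p up to 0.0938), without CGD CD101-positive replicate 1 or 2 or WT CD101-negative replicate 1 or 3 for Atf3 (up to 0.127), without any one of 5 libraries, all but WT CD101-negative replicate 2, for Bax (up to 0.292) and without any one of the 6 for Bid (up to 0.131).

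Lipid mediator and adhesion genes held few calls. Alox15, which makes hydroperoxides of fatty acids, was at most 0.559 CPM in CGD CD101-positive cells and stood at 7.65, 9.78 and 16.4 CPM in WT CD101-negative cells (log2 fold change -5.10 ± 0.96, adjusted p = 0.00506), and it is also an eosinophil marker. Ptges3, a co-chaperone with prostaglandin E synthase activity, fell (log2 fold change -0.81 ± 0.22, adjusted p = 0.045), and no other of the 16 leukotriene and prostanoid genes passed. The Ptges3 call was lost without CGD CD101-positive replicate 2 or 3 or WT CD101-negative replicate 1 or 3 (adjusted p up to 0.21). Of 17 chemoattractant receptor and adhesion genes, Cd47, the signal that restrains engulfment, rose (log2 fold change 0.90 ± 0.19, adjusted p = 0.0103) and Ccr2, a monocyte chemokine receptor, fell (log2 fold change -1.16 ± 0.32, adjusted p = 0.0424). The Cd47 call was lost without CGD CD101-positive replicate 1 or WT CD101-negative replicate 3 (up to 0.0649) and the Ccr2 call without any one of the 6 libraries (up to 0.214). None of the 10 genes of arginine, polyamine and itaconate metabolism passed, Acod1, which makes itaconate, among them (0.53).

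**Figure D5:**
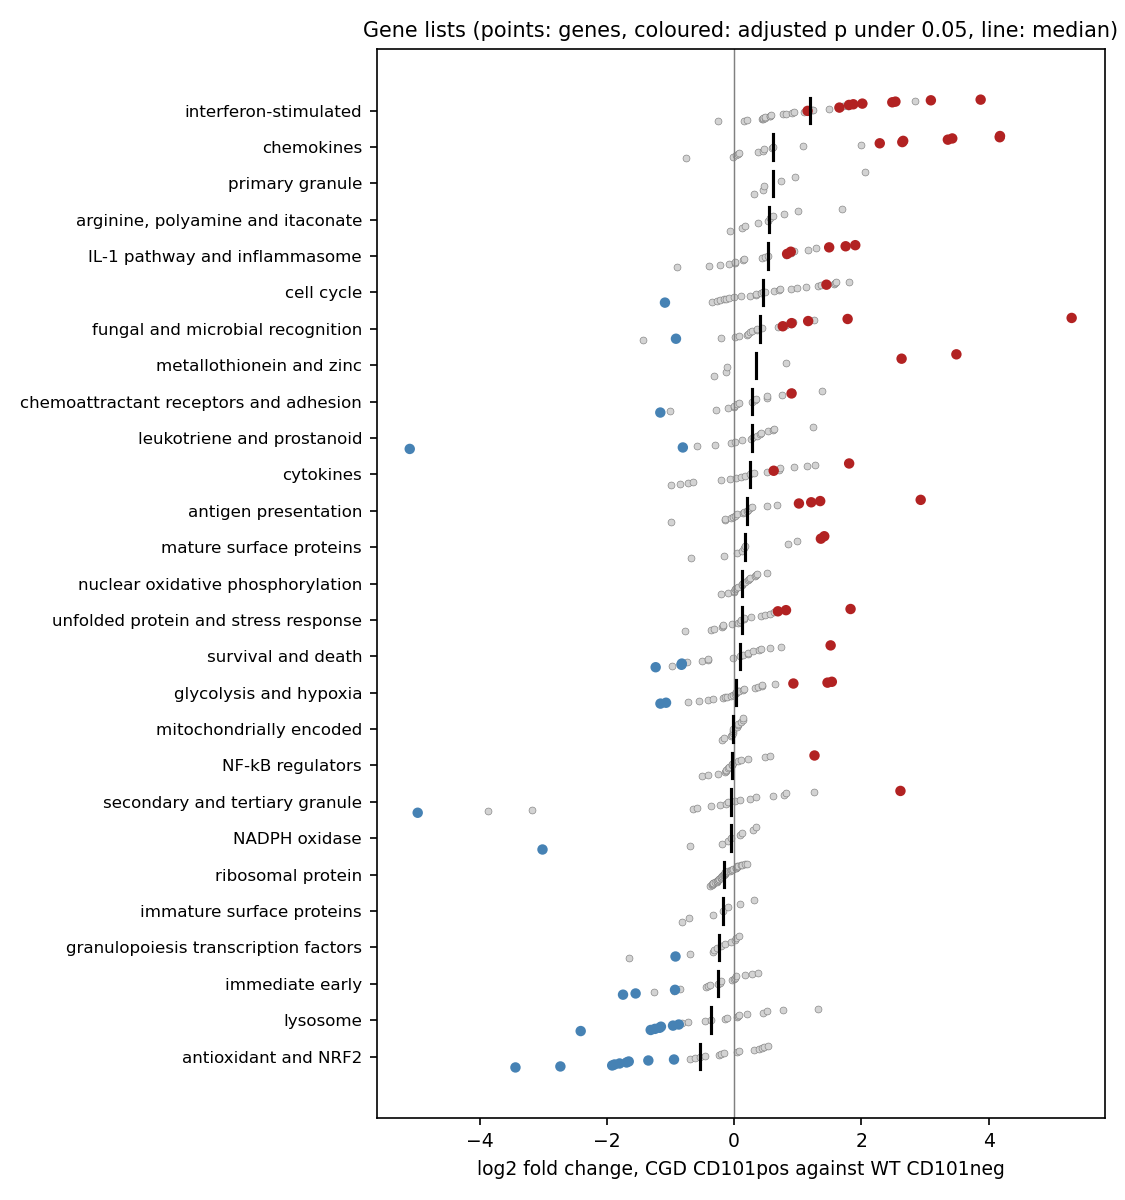
Log2 fold change of CGD CD101-positive against WT CD101-negative cells (x axis) for every tested gene of the 27 process and maturation lists (y axis, ordered by median); red and blue points passed as higher and lower, and vertical lines are medians. The medians run from -0.54 for the antioxidant list to 1.19 for the interferon-stimulated list.

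Transcripts of other cell types were present in both groups and some differed between them. Of 18 alveolar macrophage markers 5 rose (Mmp12, Chil3, Ctsk, Mrc1 and Car4) with a median of 1.27, and none was at 0 in either group. The summed level of the list was 3461 to 3911 CPM in CGD and 1515 to 2318 CPM in WT CD101-negative libraries. Without Chil3, which immature neutrophils also express, the sums were 1699, 1578 and 1789 CPM against 1972, 1109 and 1550 CPM and overlapped. Mmp12, a macrophage elastase, stood at 44.0, 21.3 and 17.0 and 2.44, 2.49 and 2.26 CPM (log2 fold change 3.51 ± 0.53, adjusted p = 0.00104). The count was 3 without WT CD101-negative replicate 3, and the Car4 call was lost without CGD CD101-positive replicate 2 or 3 or WT CD101-negative replicate 2 or 3 (adjusted p up to 0.188).

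Of 15 monocyte and interstitial macrophage markers, C1qa, C1qb, C1qc and F13a1 rose and Csf1r and Ccr2 fell, and the list sums overlapped (1087 to 1366 and 1176 to 1324 CPM). C1qa and C1qb, subunits of complement C1q, stood at 23.4, 23.4 and 40.6 and 81.6, 94.9 and 130 CPM in CGD and 10.4, 15.2 and 7.57 and 33.2, 52.3 and 25.0 CPM in WT libraries. Csf1r, the receptor for macrophage colony-stimulating factor, stood at 262, 298 and 380 and 568, 477 and 564 CPM (log2 fold change -0.78 ± 0.20, adjusted p = 0.0271). No marker that rose passed without CGD CD101-positive replicate 3 or without WT CD101-negative replicate 3, 1 rose without WT replicate 1, 2 without CGD replicate 2, and 1, C1qa, under library size scaling. The Csf1r call was lost without CGD CD101-positive replicate 1 or 2 or WT CD101-negative replicate 1 or 3 (adjusted p up to 0.132).

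Of 8 B cell markers 6 fell in CGD CD101-positive cells (75%, against 2.27% of all genes), with a median of -1.93. The list sums were 46.5 to 67.2 CPM in CGD and 123 to 149 CPM in WT libraries. The count was 4 without CGD CD101-positive replicate 2 or WT CD101-negative replicate 3, and 5 without CGD CD101-positive replicate 3. Cd79a, a chain of the B cell receptor complex, stood at 2.44, 3.20 and 2.44 CPM in CGD and 10.6, 10.1 and 13.5 CPM in WT libraries (log2 fold change -2.08 ± 0.26, adjusted p = 0.000168), and Igkc, the kappa light chain constant region, at 1.97, 3.21 and 2.58 and 18.5, 32.6 and 19.1 CPM (log2 fold change -3.17 ± 0.35, adjusted p = 4.84e-05). Of T and NK cell markers 3 of 13 fell: Gzma, Nkg7 and Prf1, of cytotoxic granules, by 1.78, 2.26 and 2.27 on the log2 scale, with list sums of 13.0 to 24.7 and 18.9 to 24.9 CPM. Calls were lost without CGD CD101-positive replicate 2 for Gzma (adjusted p 0.0534), and without CGD CD101-positive replicate 2 or 3 or WT CD101-negative replicate 3 for Nkg7 and for Prf1 (up to 0.133 and 0.103). Of 6 eosinophil markers Alox15 fell and Ear6 rose (log2 fold change 1.99 ± 0.45, adjusted p = 0.015), with sums of 46.1 to 58.7 and 44.1 to 71.8 CPM and 1 marker at 0 in the CGD libraries. The Ear6 call was lost without CGD CD101-positive replicate 2 or WT CD101-negative replicate 1 (up to 0.0648). No dendritic cell, basophil and mast cell, epithelial, endothelial, fibroblast and mural, platelet or erythroid marker passed. In bulk libraries fewer cells of a type and less RNA per cell cannot be told apart, and the part of these cell types in the differences above was not tested.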

How the data were processed

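The deposited table holds raw read counts per gene for 18 libraries, which the authors made by aligning with STAR (version 2.5.1a) and counting with Subread's featureCounts (1.4.6-p5), per the submitters' processing notes, from libraries of the SMARTer kit, per the labels' protocols. The submitters' genome build, annotation and strand setting were not given in the sources used here, and overlapping genes are therefore uncertain. Of 40757 lines, 276 were identical repeats of an ID and entered once, and 0 sample columns were left out. The filter (filterByExpr by group) kept 16575 genes, holding 99.967% or more of the counts in every library. One edgeR 4.0.16 fit (R 4.3.3, robust quasi-likelihood, TMM) of all 18 libraries gave every comparison, with 12 residual degrees of freedom. The SE is the size of the log2 fold change over the square root of F, and the 95% interval uses the fit's total degrees of freedom. Levels are edgeR CPM. Distances used log2 CPM with a prior count of 2.

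Named genes are the 10 largest changes in each direction among genes that passed, reached a mean of 10 CPM in the higher group and did not overlap between groups (predicted models and pseudogenes left out), all mature surface, immature surface and NADPH oxidase genes, up to 4 members with the lowest p of each other list (3 for the 12 cell type lists, 2 where none passed), and maturation genes bounded within 2-fold. Camp, Ltf, Ngp, Clec7a, Tlr2 and further list members that passed were chosen after their values were seen. Results for some members of the lists are not reported here, though the genes stayed in the fit and the counts. The libraries and the 39 lists were chosen with earlier results of these data known. No list was tested as a set. Same-numbered libraries of the WT sorts deviated together (correlations across genes 0.487, 0.425 and 0.312; each exceeded those of other numbers), a pairing seen in the data and not stated in the labels. On simulated counts for 16170 genes the fit of this comparison recovered 30% of 100 genes changed 2-fold and 90% of 100 changed 4-fold, with 1.64% false calls. Alternatives were RLE or library size scaling, no low-count filter, fewer libraries in the fit, a replicate block, DESeq2 1.42.0 and each library left out. Promoter sequences are RefSeq's on GRCm38.p6, matched by symbol.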

Additional observations from a re-analysis of the deposited data

Results flagged for a closer look

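For 8 genes named above the difference between the CD101 sorts was itself different between the genotypes after zymosan (an interaction in the same edgeR quasi-likelihood fit, adjusted p under 0.05, as for 0.851% of all genes). Values are the log2 difference of CD101-negative against CD101-positive cells in CGD minus that in WT. It was negative for Prdx1 at -2.90 ± 0.33 (SE; adjusted p = 0.000968), C1qa at -3.70 ± 0.45 (adjusted p = 0.00100), C1qb at -3.59 ± 0.49 (adjusted p = 0.00226), Mrc1 at -3.44 ± 0.50 (adjusted p = 0.00307), Nqo1 at -2.94 ± 0.57 (adjusted p = 0.0196) and Igkc at -2.03 ± 0.47 (adjusted p = 0.0470). It was positive for Il12a at 1.69 ± 0.37 (adjusted p = 0.0382) and Irak3 at 1.35 ± 0.28 (adjusted p = 0.0239). For Prdx1 the CGD CD101-negative libraries stood at 70.0, 64.6 and 73.2 CPM, below the CD101-positive ones at 135, 121 and 133 CPM, while in WT cells the CD101-negative libraries were the higher (362, 320 and 572 against 148, 77.1 and 88.0 CPM). For C1qb the 4 groups stood at 9.39, 12.4 and 10.2 CPM (CGD CD101-negative), 81.6, 94.9 and 130 CPM (CGD CD101-positive), 33.2, 52.3 and 25.0 CPM (WT CD101-negative) and 48.9, 22.7 and 16.4 CPM (WT CD101-positive).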

How the results depend on the processing

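No named gene that passed changed direction under any alternative. Against the 756 calls, RLE scaling gave 750, library size scaling 753, no low-count filter 793, a fit of only the 6 libraries compared 406, of only the 12 zymosan libraries 502 and DESeq2 1336, and with one library left out the count ran from 277 to 920. For CGD against WT CD101-positive cells (878), the 12 zymosan libraries gave 570, DESeq2 1405 and leaving out a library 320 to 1125, and library size scaling split the calls into 308 higher and 490 lower. For the WT sorts (73), no filter gave 140, DESeq2 329 and leaving out a library 3 to 400. The 6296 genes bounded within 2-fold ranged over 5067 to 6350. Over genes with a mean of at least 10 CPM the distances were 0.729 to WT CD101-negative and 0.722 to WT CD101-positive libraries. With the replicate number as a block the counts were 846, 890 and 50. Same-numbered libraries of the 2 groups compared did not deviate together (correlations across genes -0.198, -0.00405 and -0.0136), so the numbers do not pair them. Those of the WT sorts did, but the block gave each number the same effect in every group. It therefore did not model the pairing of the WT sorts by itself. Between the WT sorts the block ended the calls named beside the results and no other named one. Whether those calls depend on that pairing was not tested. Under library size scaling the median of 7 of the 39 lists moved by more than its spread over libraries and that of 5 changed sign. The 142 named genes include many that did not pass and so had no call to lose. Among those that passed, calls were lost for 1 with RLE, 10 with library size scaling, 10 without the filter and 21 with 6 libraries. They were lost for 15 with 12 libraries, 4 with the block, 0 with DESeq2 and 8 to 29 with a library left out. The cause was not tested. In the simulation, with 3 libraries per group, most 2-fold changes were missed, so real changes of that size may be missed too. Few genes were changed there, none of them with low counts, so the share recovered need not hold for these data.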
